A study of Mus musculus with 18 samples.

Results

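Open chromatin in mouse liver was described at the genes of 8 transcription factors that define the hepatocyte: Hnf4a, Foxa1, Foxa2, Foxa3, Onecut1, Cebpa, Cebpb and Nr5a2. The peaks of 9 strains were merged into 51957 sites, and the 119 sites that overlapped one of the 8 gene bodies or lay within 20 kb of either end were kept. The data came from FAIRE-seq, which recovers the DNA that is free of nucleosomes from formaldehyde-fixed tissue. Livers were taken from male mice of BXH2/TyJ and BXH19/TyJ, recombinant inbred strains that descend from C57BL/6J and C3H/HeJ, and of 7 inbred strains, A/J, AKR/J, BALB/cJ, CBA/J, DBA/2J and those 2 parents. All mice had received a high-fat, high-sucrose diet for 8 weeks from 8 weeks of age, so that no group on another diet was compared, and each strain was represented by 2 mice and 1 peak list that combined them. Because the replicates are combined, no value below has a replicate error, and strains were compared as a description. The only test applied to strains was Dixon's limit for an extreme strain, given at the end. A strain was said to have a site, or to call it, where at least 1 bp of the site lay under one of its peaks. The height of a peak was expressed as its percentile among all peaks of the same list (100 for the highest), since the lists are not stated to share a scale. Where a strain had more than 1 peak in a site, the highest was used. Absence of a peak does not show that a site was closed, since weak signal is not called.

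The 8 proteins form a network that switches on the genes of liver metabolism and keeps their own genes active. HNF4A is a nuclear receptor that binds many hepatocyte promoters and enhancers. FOXA1, FOXA2 and FOXA3 are forkhead proteins known as pioneer factors, because they can bind DNA that is still wrapped in nucleosomes. ONECUT1, also called HNF6, is a cut-homeodomain protein of early liver and bile duct development. CEBPA and CEBPB are basic leucine zipper proteins, with CEBPA linked to the quiescent, metabolic state and CEBPB to the acute phase and regeneration. NR5A2, also called LRH-1, is a nuclear receptor of bile acid and cholesterol metabolism.

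Promoter sequences are shown for 4 starts because their marked letters, those of another or the same factor of the network, lay in a site called in all 9 strains. Each is the 300 bp before an annotated start on mm9, in the C57BL/6J reference, 5′ to 3′ on the strand of the gene. Capitals mark the ONECUT letters (TATTGATT or, on the other strand, AATCAATA), except in the second line, where they mark the C/EBP letters (TTGCNNAA or TTNNGCAA, where N is any base). A match of letters is a description of the sequence, and binding was not measured. The ONECUT letters ended 4 bp before the most upstream start of Hnf4a, 207 bp before that of Foxa2 and 166 bp before the second start of Onecut1 (distances run from the last letter to the start). The C/EBP letters of the second line ended 122 bp before the start at which they are shown.
Hnf4a, upstream promoter, chr2:163332244-163332543, + strand: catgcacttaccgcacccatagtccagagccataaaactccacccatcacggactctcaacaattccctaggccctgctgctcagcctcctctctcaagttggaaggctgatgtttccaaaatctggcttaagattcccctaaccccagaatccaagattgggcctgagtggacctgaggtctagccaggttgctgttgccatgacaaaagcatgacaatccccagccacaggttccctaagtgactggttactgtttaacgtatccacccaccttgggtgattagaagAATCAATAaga
Hnf4a, downstream promoter, chr2:163372253-163372552, + strand: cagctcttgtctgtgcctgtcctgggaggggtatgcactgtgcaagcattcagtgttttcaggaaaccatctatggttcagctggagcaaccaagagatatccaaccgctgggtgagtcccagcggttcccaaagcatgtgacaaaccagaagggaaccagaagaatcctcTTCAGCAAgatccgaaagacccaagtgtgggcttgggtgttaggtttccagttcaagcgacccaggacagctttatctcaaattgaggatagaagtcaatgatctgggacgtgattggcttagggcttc
Foxa2, most upstream start, chr2:147872706-147873005, − strand: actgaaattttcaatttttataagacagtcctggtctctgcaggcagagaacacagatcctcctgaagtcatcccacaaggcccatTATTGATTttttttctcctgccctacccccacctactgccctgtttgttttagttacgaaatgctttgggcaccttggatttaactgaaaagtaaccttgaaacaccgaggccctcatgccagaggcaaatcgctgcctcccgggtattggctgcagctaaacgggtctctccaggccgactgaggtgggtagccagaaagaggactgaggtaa
Onecut1, second start, chr9:74713991-74714290, + strand: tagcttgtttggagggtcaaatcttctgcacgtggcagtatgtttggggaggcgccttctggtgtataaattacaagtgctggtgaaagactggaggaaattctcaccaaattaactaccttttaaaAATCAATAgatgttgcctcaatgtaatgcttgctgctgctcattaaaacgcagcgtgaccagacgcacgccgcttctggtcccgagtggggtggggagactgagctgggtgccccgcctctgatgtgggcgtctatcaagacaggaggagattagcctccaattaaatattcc

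The ONECUT letters stood before 5 of the 19 annotated starts of the 8 genes, in 3 genes, against 0.713% of 69965 starts of protein-coding genes. The 5 starts held 3 separate copies, since neighbouring starts of Hnf4a and of Foxa2 shared 1 copy each. The C/EBP letters stood before 2 of the 19 starts, against 10.1% of all starts, and the FOXA letters (TGTTTAC, other strand GTAAACA) before 1, against 3.26%. The FOXA copy lay 125 bp before the single start of Foxa1, outside the merged sites. The HNF4 letters (CAAAGTCCA, other strand TGGACTTTG) and the NR5A2 letters (CAAGGTCA, other strand TGACCTTG) were before none of the 19 starts, against 0.442% and 1.58% of all starts.

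The sites of the 8 genes were called in as many strains as sites elsewhere, whereas their number per gene was high. Of the 119 sites, 31 were called in all 9 strains (26.1%), against 26.6% of all 51957 sites. A further 34 were called in 1 strain (28.6%), against 26.5% of all sites, and 54 in 2 to 8 strains (45.4%), against 46.9%. These shares were near the background and give no result about the 8 genes. The genes had 7 to 23 sites each in their windows, with a median of 15.5, against a median of 2.0 over 22380 protein-coding genes (quartiles 1.0 and 5.0). Since a longer gene has a longer window, sites were also counted per 10 kb of window. Foxa3 had 3.78 sites per 10 kb, Cebpb 3.61, Cebpa 2.81, Onecut1 2.36, Hnf4a 2.17, Foxa2 1.59, Foxa1 1.54 and Nr5a2 1.28, against a median of 0.335 over all protein-coding genes (quartiles 0.0312 and 0.826). The lowest, Nr5a2, exceeded 86.4% of those genes and the highest, Foxa3, 99.8%. The 19 other liver transcription factors also had many sites, with a median of 12, and the numbers called in all 9 strains had medians of 3.5 for the 8 genes and 3.0 for the other factors.

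**Figure D1:**
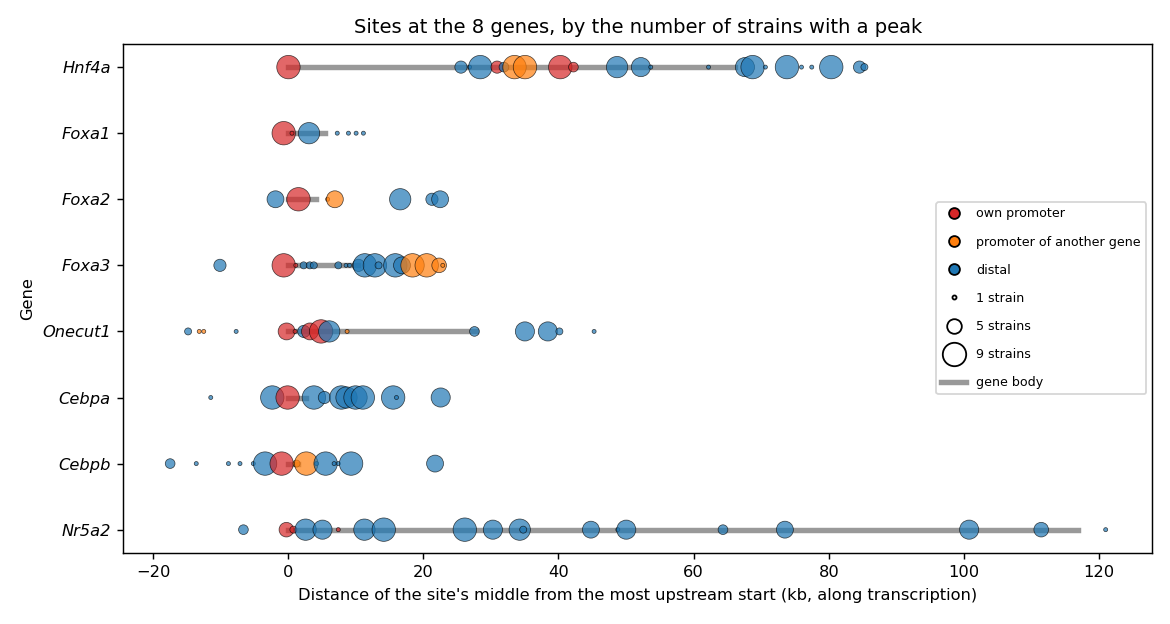
Position of the 119 sites along the 8 genes. The x axis gives the distance of the middle of each site from the most upstream start in kb along transcription, each row is a gene, grey bars are gene bodies, circle area grows with the number of strains with a peak (1 to 9) and colour gives the class of site. The large circles of Cebpa lie mostly downstream of its short gene body, whereas 15 of the 17 distal sites of Nr5a2 lie within the gene.

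The sites were split by position. A site within 1 kb of an annotated start of the gene itself was called its own promoter site (18 sites), a site within 1 kb of the start of another gene only was kept apart (13 sites), and the other 88 were called distal. Of the 18 own promoter sites, 8 were called in all 9 strains (44.4%), against 48.8% of the 18422 sites within 1 kb of any gene start. Of the 88 distal sites, 18 were called in all 9 strains (20.5%), against 14.4% of the 33535 distal sites of the merged set and 14.6% of the 26944 distal sites that lay in a protein-coding gene or within 20 kb of one. Without A/J, the shares called in every other strain were 27.6% of 76 distal sites of the 8 genes and 23.8% of 30377. Single-strain calls made up 25 of the 88 distal sites (28.4%), against 30.3% of all distal sites. The distal sites open in all strains were unevenly spread over the genes. Cebpa had 6 of the 18, Hnf4a 4, Foxa3 and Cebpb 3 each and Nr5a2 2, whereas Foxa1, Foxa2 and Onecut1 had none.

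An own promoter site was called in all 9 strains at 7 of the 8 genes, against 40.8% of the 22380 protein-coding genes. Nr5a2 was the exception. The strongest own promoter site of each gene was compared by its median percentile over the 9 strains, with uncalled strains at 0. The order was Foxa3 (92.6), Cebpb (85.6), Hnf4a (81.2), Onecut1 (68.4), Cebpa (65.5), Foxa2 (62.5), Foxa1 (31.5) and Nr5a2 (7.66). Over the 13329 protein-coding genes with a promoter site the median was 72.7 (quartiles 30.7 and 89.0). Neighbours in this order overlapped in their range over strains. The sites of Foxa3 and Cebpb also lay within 1 kb of a start of Sympk and of Tmem189, so that these values cannot be given to 1 gene alone.

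**Figure D2:**
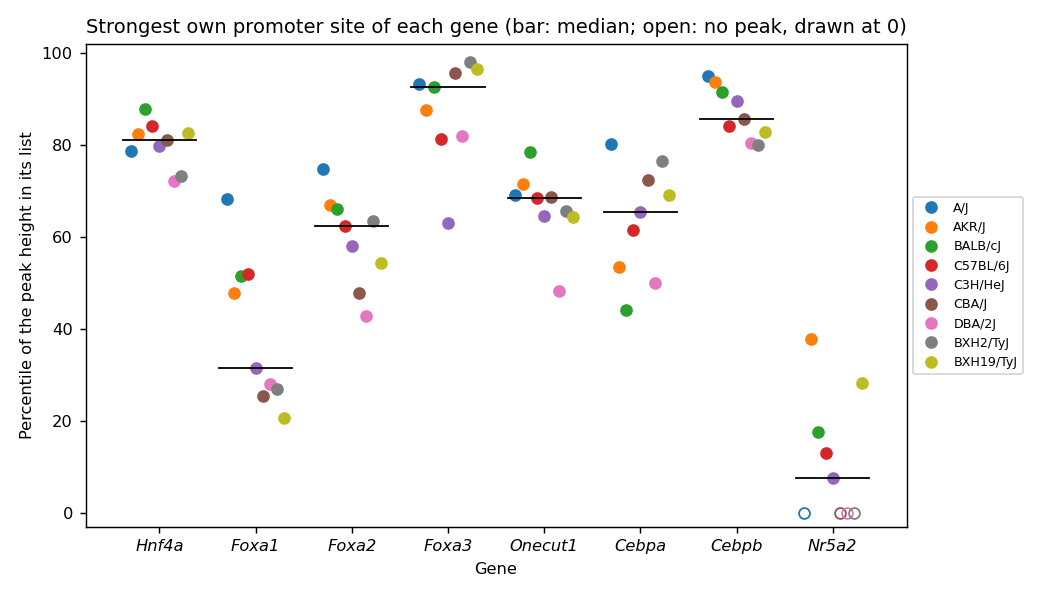
Strongest own promoter site of each gene in 9 strains. The y axis gives the percentile of the peak height within the list of a strain, each point is a strain, bars are medians and open circles are strains without a peak. Hnf4a and Cebpb kept the narrowest ranges (15.4 and 14.9 points), Foxa1 the widest (47.6 points), and Nr5a2 had a peak in 5 strains.

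Hnf4a lies on the + strand of chromosome 2 (mm9, 163332544 to 163398646) and had 23 sites. It has a downstream promoter, P1, that is the main one of adult liver, and an upstream promoter, P2, best known from pancreas and fetal tissue. Both were open in all 9 strains. The site at P1 (chr2:163372180-163373432, over an annotated exon) had percentiles of 78.7 in A/J, 82.5 in AKR/J, 87.8 in BALB/cJ, 84.2 in C57BL/6J, 79.8 in C3H/HeJ, 81.2 in CBA/J, 72.3 in DBA/2J, 73.2 in BXH2/TyJ and 82.6 in BXH19/TyJ. The site at P2 (chr2:163332193-163332970) lay lower, with 48.0 in A/J, 42.9 in AKR/J, 46.2 in BALB/cJ, 34.9 in C57BL/6J, 32.7 in C3H/HeJ, 48.0 in CBA/J, 32.9 in DBA/2J, 45.7 in BXH2/TyJ and 47.9 in BXH19/TyJ. The lowest P1 value exceeded the highest P2 value, so that the order P1 over P2 held in every strain. The upstream promoter sequence with the ONECUT letters and the downstream one with the C/EBP letters, shown above, lie in these 2 sites.

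A further 2, weaker, own promoter sites of Hnf4a were called in some strains. A site 429 bp downstream of the start at 163362755 (chr2:163363184-163363732) was called in 4 strains at 7.14 to 20.7, and a site 722 bp upstream of the start at 163375819 (chr2:163374411-163375097) in 3 strains at 5.77 to 9.68. Between P2 and P1, an intronic site (chr2:163360542-163361393) was called in all 9 strains at 42.9 to 64.2, with the highest value in BXH2/TyJ. A cluster of 2 sites next to the start of the noncoding gene 0610008F07Rik, inside Hnf4a, was also called in all 9 strains. Its first site (chr2:163364950-163367122) reached 65.4 to 84.2, close to P1. Downstream of the gene, 3 distal sites were called in every strain, at medians of 71.3, 65.7 and 67.2. Among the sites called in some strains, the most variable was intragenic (chr2:163384182-163385293), with percentiles of 0.535 in BALB/cJ, 10.3 in C3H/HeJ, 24.4 in BXH2/TyJ, 25.6 in C57BL/6J, 36.0 in AKR/J, 42.8 in BXH19/TyJ and 48.5 in CBA/J and no peak in A/J and DBA/2J. The next was an intronic site (chr2:163380644-163381782) called at 14.4 to 53.5 in every strain but C57BL/6J.

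Foxa1 (chromosome 12, 58641618 to 58647108, − strand) had the weakest promoter of the genes called in every strain and the largest spread. Its upstream promoter site (chr12:58647349-58648197) had percentiles of 68.3 in A/J, 47.9 in AKR/J, 51.5 in BALB/cJ, 52.0 in C57BL/6J, 31.5 in C3H/HeJ, 25.4 in CBA/J, 28.1 in DBA/2J, 26.9 in BXH2/TyJ and 20.7 in BXH19/TyJ. A/J was highest, AKR/J, BALB/cJ and C57BL/6J were intermediate, and the other 5 strains lay at or below 31.5. A second own promoter site within the gene (chr12:58646225-58646871) was called in A/J only, at 45.2. The exonic site in the gene body (chr12:58643011-58645046) was called in 8 strains at 9.55 to 77.2, with A/J highest, C57BL/6J lowest and no peak in DBA/2J. Of the 4 sites downstream of the gene, 3 were called in A/J only, at 16.6, 42.0 and 42.5 (the last, chr12:58635817-58636141, with the FOXA letters), and 1 in C57BL/6J only, at 24.5. The 3 genes whose strongest promoter was most like that of Foxa1 over the 9 strains were 4930528F23Rik, 4932425I24Rik and Bnip1, with mean absolute differences of 7.35, 8.22 and 8.97 points among 13328 genes compared.

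Foxa2 (chromosome 2, 147868613 to 147872705, − strand) was covered by a single wide site of 3731 bp that took in all 4 of its annotated starts (chr2:147869318-147873048). Its percentiles were 74.8 in A/J, 67.0 in AKR/J, 66.2 in BALB/cJ, 62.5 in C57BL/6J, 58.0 in C3H/HeJ, 47.8 in CBA/J, 42.9 in DBA/2J, 63.5 in BXH2/TyJ and 54.4 in BXH19/TyJ. A/J was highest and DBA/2J lowest, and the other strains filled the range between them. No other site of Foxa2 was called in all strains. The most variable one lay downstream (chr2:147855754-147856505) and was called in 8 strains at 6.40 in BXH2/TyJ to 62.6 in AKR/J, with no peak in DBA/2J. A site 1491 bp upstream of the most upstream start (chr2:147874196-147874972) was called in 6 strains at 15.4 to 46.8, but not in C57BL/6J, DBA/2J and BXH2/TyJ.

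Foxa3 (chromosome 7, 19598631 to 19608887, − strand) had 19 sites and the strongest promoter of the 8 genes. The promoter site, shared with Sympk (chr7:19608515-19610587), had percentiles of 93.2 in A/J, 87.6 in AKR/J, 92.6 in BALB/cJ, 81.3 in C57BL/6J, 63.1 in C3H/HeJ, 95.6 in CBA/J, 82.0 in DBA/2J, 98.1 in BXH2/TyJ and 96.6 in BXH19/TyJ. C3H/HeJ stood 18.2 points below the next strain. A second own promoter site in the intron (chr7:19607559-19607967) was called in A/J only, at 51.7. Apart from the promoter site shared with Sympk, the sites within the gene body were called in 1 to 4 strains. By contrast, 3 distal sites downstream of the gene were called in all 9 strains. These 3 sites had medians of 51.7 (28.8 to 80.4), 61.4 (43.5 to 85.6) and 72.0 (46.1 to 83.6). Near the far end of the window, the promoter of Irf2bp1 held 2 sites called in all strains. One of them (chr7:19587837-19588941) had the widest range of the 31 sites called in all 9 strains, with 42.8 in A/J, 70.9 in AKR/J, 48.7 in BALB/cJ, 89.1 in C57BL/6J, 6.01 in C3H/HeJ, 25.5 in CBA/J, 55.0 in DBA/2J, 77.0 in BXH2/TyJ and 71.1 in BXH19/TyJ. Because it lies within 1 kb of the start of Irf2bp1 and 19946 bp from that of Foxa3, it is given here by position only. Of the sites called in some strains, the most variable was at the start of Gm16266 (chr7:19586274-19586828), called in 5 strains at 4.89 to 59.3, followed by a distal site (chr7:19591853-19592241) called in 6 strains at 21.5 to 51.1.

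Onecut1 (chromosome 9, 74709728 to 74737591, + strand) had 16 sites and 2 annotated starts that differed in their openness. The site at the second start (chr9:74714054-74715139), in which the ONECUT letters of the sequence shown above lie, was called in all 9 strains, with percentiles of 69.2 in A/J, 71.6 in AKR/J, 78.4 in BALB/cJ, 68.4 in C57BL/6J, 64.6 in C3H/HeJ, 68.7 in CBA/J, 48.2 in DBA/2J, 65.6 in BXH2/TyJ and 64.4 in BXH19/TyJ. DBA/2J stood 16.2 points below the next strain. The site at the first start (chr9:74709010-74709973) was called in 6 strains, with 73.7 in A/J, 49.6 in AKR/J, 43.1 in BALB/cJ, 26.7 in CBA/J, 43.6 in BXH2/TyJ and 62.6 in BXH19/TyJ and no peak in C57BL/6J, C3H/HeJ and DBA/2J. At the first start BXH2/TyJ and BXH19/TyJ thus had a peak where neither parent had one. A site 277 bp downstream of the first start (chr9:74710005-74711488) was called in A/J only, at 43.6. A site 760 bp upstream of the second start (chr9:74712361-74713531) was called in 6 strains at 3.36 to 52.8. None of the 9 distal sites of Onecut1 was called in all 9 strains. The most variable was downstream (chr9:74747984-74748322), called in 7 strains at 2.98 in DBA/2J to 64.5 in C57BL/6J, and a site at the start of Gm16551 upstream (chr9:74696949-74697507) was called in A/J only, at 62.9.

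Cebpa (chromosome 7, 35904312 to 35906945, + strand) had the densest set of sites called in all 9 strains, 7 of its 12, or 1.64 per 10 kb, above 99.8% of protein-coding genes. Its own promoter site spanned 2998 bp (chr7:35902724-35905721) and had percentiles of 80.2 in A/J, 53.5 in AKR/J, 44.2 in BALB/cJ, 61.5 in C57BL/6J, 65.5 in C3H/HeJ, 72.4 in CBA/J, 50 in DBA/2J, 76.6 in BXH2/TyJ and 69.2 in BXH19/TyJ. The other 6 were 1 site 1873 bp upstream (57.1 to 84.2, median 70.8) and 5 sites between 2853 and 15296 bp downstream, with medians of 72.6, 32.1, 32.3, 66.3 and 62.3. The upstream site and 3 of these downstream sites were therefore as high as or close to the promoter itself, by rank. Among the sites called in some strains, a variable one (chr7:35925985-35927770) was called in 7 strains at 2.13 in BXH19/TyJ to 57 in A/J.

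The sequence of 1 distal site of Cebpa is shown because it was called in all 9 strains and held the letters of FOXA and of C/EBP in its middle 300 bp. It is on mm9, + strand, and capitals mark the FOXA letters (GTAAACA) and the C/EBP letters (TTNNGCAA).
Cebpa, 15296 bp downstream of the start, called in all 9 strains, chr7:35919693-35919992: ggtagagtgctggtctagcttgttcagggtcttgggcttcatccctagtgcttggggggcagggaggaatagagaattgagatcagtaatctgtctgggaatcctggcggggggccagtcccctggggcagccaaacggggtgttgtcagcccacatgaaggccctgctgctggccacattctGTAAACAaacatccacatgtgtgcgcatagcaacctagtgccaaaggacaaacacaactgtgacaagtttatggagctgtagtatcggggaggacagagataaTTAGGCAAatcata

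Cebpb (chromosome 2, 167514415 to 167515918, + strand) had the second strongest promoter. The site covered 3233 bp (chr2:167511831-167515063) and had percentiles of 95.0 in A/J, 93.7 in AKR/J, 91.5 in BALB/cJ, 84.2 in C57BL/6J, 89.5 in C3H/HeJ, 85.6 in CBA/J, 80.5 in DBA/2J, 80.1 in BXH2/TyJ and 82.8 in BXH19/TyJ. The strains lay close together, with the smallest range of the 8 promoters. Distal sites open in every strain were found upstream (chr2:167510196-167511786, median 38.5) and downstream (chr2:167519580-167520320, median 54.1, and chr2:167523360-167524085, median 59.2). Of the 15 sites, 7 were called in 1 strain, at 1.79 to 30.3, where 26.5% of all sites were called in 1 strain. A/J alone called 3 of these 7. Among the sites called in some strains, the most variable were the distal one at chr2:167496786-167497104, called at 46.3 in C57BL/6J, 5.05 in C3H/HeJ and 11.0 in BXH19/TyJ, and one at the end of the gene (chr2:167515491-167515801), called at 41.9 in A/J and 14.3 in BALB/cJ. The latter lay within 1 kb of starts of A530013C23Rik and Tmem189, but not of that of Cebpb.

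Nr5a2 (chromosome 1, 138740161 to 138857004, − strand) had the weakest promoter of the 8 genes by median percentile. Inside the gene lay 15 of its 17 distal sites, against 8 of 17 at Hnf4a and 7 of 13 at Foxa3. Nr5a2 is also the longest of the 8 genes, with a body of 116844 bp in a window of 156844 bp. The site at the upstream start (chr1:138856985-138857559) was called in 5 strains, at 37.9 in AKR/J, 17.7 in BALB/cJ, 13.1 in C57BL/6J, 7.66 in C3H/HeJ and 28.2 in BXH19/TyJ. A/J, CBA/J, DBA/2J and BXH2/TyJ had no peak there. A site 593 bp downstream of this start (chr1:138856066-138856411) was called in AKR/J at 38.6 and in BXH19/TyJ at 19.9, and a site 361 bp downstream of the second start (chr1:138849337-138849846) in A/J only at 19.8. Of the 17 distal sites, AKR/J and BXH19/TyJ each had 14, BALB/cJ and C57BL/6J 13, C3H/HeJ and BXH2/TyJ 11, CBA/J 10, A/J 6 and DBA/2J 5. A/J and DBA/2J were also the lowest over all distal sites, with 37.8% and 39.5% called, against 44.6% to 52.0% in the other strains. The 2 intronic sites called in all strains had medians of 52.6 (chr1:138842542-138843185, 24.7 to 71.3) and 72.2 (chr1:138830654-138831086, 39.6 to 78.5). The most variable distal site (chr1:138851587-138852264) was called at 0.123 in BXH2/TyJ to 60.8 in CBA/J and not in A/J and DBA/2J, and the next (chr1:138845071-138846386) at 16.5 in C57BL/6J to 70.8 in A/J and not in DBA/2J. The 20 sites of Nr5a2 had the lowest base composition of the 8 genes, with a median of 48.7% G and C, against 53.9% over all sites.

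Sequences of Nr5a2 are shown for its promoter, which holds the HNF1 letters (GTTAATNAT, other strand ATNATTAAC), and for an intronic site with the FOXA letters that was called in every strain but A/J, at 33.2 to 72.3. Both are on mm9 and read on the − strand, and capitals mark the HNF1 letters in the first line and the FOXA letters in the second.
Nr5a2, before the upstream start, chr1:138857005-138857304: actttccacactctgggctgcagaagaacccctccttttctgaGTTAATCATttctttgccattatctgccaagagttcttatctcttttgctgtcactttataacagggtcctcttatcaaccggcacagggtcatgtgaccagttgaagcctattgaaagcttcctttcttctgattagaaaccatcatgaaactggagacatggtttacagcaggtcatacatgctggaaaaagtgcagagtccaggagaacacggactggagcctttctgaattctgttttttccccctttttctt
Nr5a2, intron, chr1:138822591-138822890: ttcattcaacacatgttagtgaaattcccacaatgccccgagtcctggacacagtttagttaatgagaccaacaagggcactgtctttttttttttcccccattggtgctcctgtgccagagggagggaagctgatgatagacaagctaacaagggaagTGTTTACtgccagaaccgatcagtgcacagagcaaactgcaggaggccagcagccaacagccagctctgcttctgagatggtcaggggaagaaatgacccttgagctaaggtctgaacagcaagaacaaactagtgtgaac

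**Figure D3:**
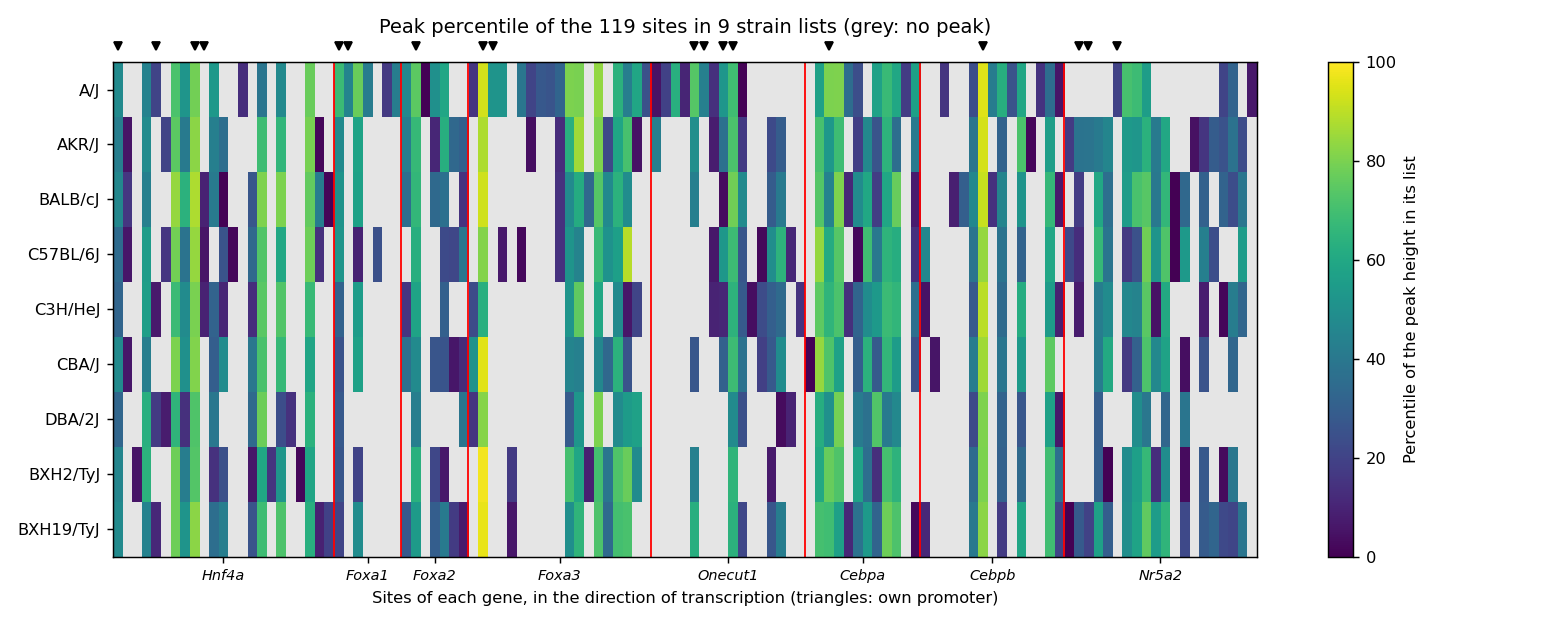
Peak percentiles of the 119 sites in the 9 lists. Rows are strains, columns are sites in the direction of transcription within each gene, colour is the percentile of the peak height, grey is no peak and triangles mark own promoter sites. The 8 own promoter sites called in all 9 strains form unbroken columns. They lie at P1 and P2 of Hnf4a and at Foxa1, Foxa2, Foxa3, Onecut1, Cebpa and Cebpb. Most sites of Nr5a2 are grey in A/J and DBA/2J.

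The letters of the 6 motifs were counted in the middle 300 bp of every site, on both strands. The FOXA letters stood in 11 of the 88 distal sites (12.5%), against 5.84% of all distal sites, and in none of the 18 own promoter sites, against 2.40% of all promoter sites. Of these 11, Nr5a2 had 5 of its 17 distal sites and Cebpa 3 of its 11, whereas Hnf4a, Foxa1 and Foxa3 had 1 each. The C/EBP letters stood in 10 distal sites (11.4%), against 15.7% of all distal sites. The HNF4 letters were in the middle 300 bp of none of the 119 sites, against 1.52% of all sites. The ONECUT letters were in the middle 300 bp of 1 of the 119 sites (0.84%), the P2 promoter of Hnf4a, against 0.893% of all sites. The copies at Foxa2 and Onecut1 shown above lay in their sites but outside this middle window. The HNF1 letters were in 3 sites (2.52%), 2 of them promoter sites of Nr5a2, against 1.22% of all sites, and the NR5A2 letters in 5 (4.20%), against 2.81%. In the 300 bp around the highest point of the peaks, the NR5A2 letters were in 3 sites (2.52%), against 2.84%, so that the order turned round. At these small counts a difference of a few sites moves each share.

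The sites of the 8 genes were looked up in the lists that the authors deposited for the 7 inbred strains. One list holds the 5% of sites ranked most variable and the other the 5% ranked least variable, which the authors call common. The authors ranked the sites by adjusted p-value from DESeq, a comparison of read counts between strains. A common site is thus one with little evidence of variation in that ranking, whether or not many strains had a peak there. The variable list held 4 of the 119 sites (3.36%), against 4.87% of all sites. Of these, 2 lay at Foxa3, the Irf2bp1 promoter and the intronic A/J site already given, and 2 upstream of Onecut1. The Onecut1 sites were called at 5.04 in A/J and 42.8 in AKR/J (chr9:74694594-74695236) and at 10.2 in A/J only (chr9:74701547-74702504). The common list held 8 sites (6.72%), against 4.89% of all sites. Of these, 3 were at Hnf4a, the P1 promoter and the 2 weaker own promoter sites, and 1 was the downstream site of Cebpa at chr7:35911916-35912437, called in all 9 strains at 2.16 in C57BL/6J to 57.6 in BXH2/TyJ. The other 4 common sites were called in 1 or 2 strains. They were a site of Onecut1 at 14.8 in C3H/HeJ (chr9:74754852-74755144), 2 of Cebpb at 5.57 in CBA/J (chr2:167500676-167500940) and 1.79 in AKR/J (chr2:167521039-167521380) and 1 of Nr5a2 at 0.126 in BALB/cJ and 0.0556 in C57BL/6J (chr1:138822104-138822348). Both lists were made from the same libraries as the peaks. The shares in the 2 lists rest on few sites and lay near those of all sites, so that they give no result about the 8 genes.

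Strains differed in how many of the 119 sites they had. A/J had 75 (63.0%), AKR/J and BALB/cJ 70 each (58.8%), C57BL/6J 69 (58.0%), BXH19/TyJ 68 (57.1%), C3H/HeJ 64 (53.8%), CBA/J 61 (51.3%), BXH2/TyJ 57 (47.9%) and DBA/2J 47 (39.5%), against 46.7% to 56.9% of all sites. DBA/2J was lowest in both and had the shortest list, 26769 peaks, where the other lists held 29914 to 30613. Of the 34 sites called in 1 strain, A/J had 20, and no other strain had more than 3. Sites called in A/J only were 16.8% of the 119, against 11.4% of all sites. In addition, 3 sites were missing in A/J alone, 1 of Cebpa and 2 of Nr5a2, and 3 in DBA/2J alone, at Foxa1, Foxa2 and Nr5a2. Sites missing in A/J alone were thus 2.52% of the 119, against 5.28% of all sites, and 877 of the 51957 sites were missing in DBA/2J alone. The other strains had 1.03% to 2.75% of all sites to themselves, so that the excess of single-strain calls in A/J was also found over the whole set.

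**Figure D4:**
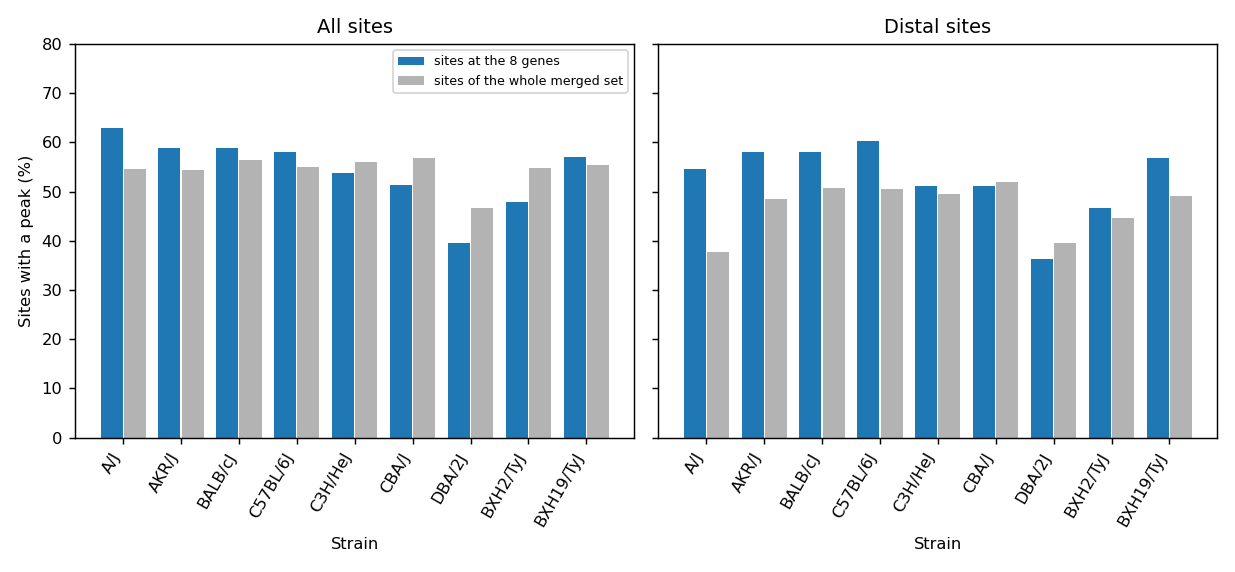
Share of sites with a peak in each strain. Blue bars are the 119 sites of the 8 genes (left) or their 88 distal sites (right), grey bars the 51957 sites of the merged set or its 33535 distal sites, and the y axis is the percentage with a peak. A/J called 54.5% of the distal sites of the 8 genes against 37.8% of all distal sites, and DBA/2J was lowest among the sites of the 8 genes in both panels.

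Base composition moved with the calls of A/J. Of the 20 sites with at least 60% G and C, A/J called all 20, whereas the other strains called 7 to 11. The same held for all sites of the merged set, of which A/J called 98.1% at this composition and the other strains 43.8% to 62.8%. Both sets include sites called in A/J only, which by definition no other strain called, so that part of this contrast was fixed in advance. Over the whole set these were 5920 sites with a median of 61.4% G and C. The 20 sites called in A/J only had a median of 59.3% G and C, against 48.6% for the 15 sites called in 5 to 8 strains but not in A/J. Over the 45 sites called in A/J and at least 4 other strains, the percentile of A/J minus the median of the others rose with G and C (Spearman's rho 0.584, a description across sites that share libraries), as it did over 18491 such sites of the whole set (0.578). The part of base composition in the A/J values of Foxa1, Foxa2, Foxa3 and Onecut1 was not tested. Over all sites, BXH2/TyJ also rose with G and C (0.442), whereas C57BL/6J (-0.394), BALB/cJ (-0.333) and CBA/J (-0.21) fell, and the other 4 strains lay between -0.083 and 0.0789. Over the sites of the 8 genes the value was 0.303 in BXH2/TyJ, -0.546 in C57BL/6J, -0.23 in BALB/cJ and -0.188 in CBA/J.

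**Figure D5:**
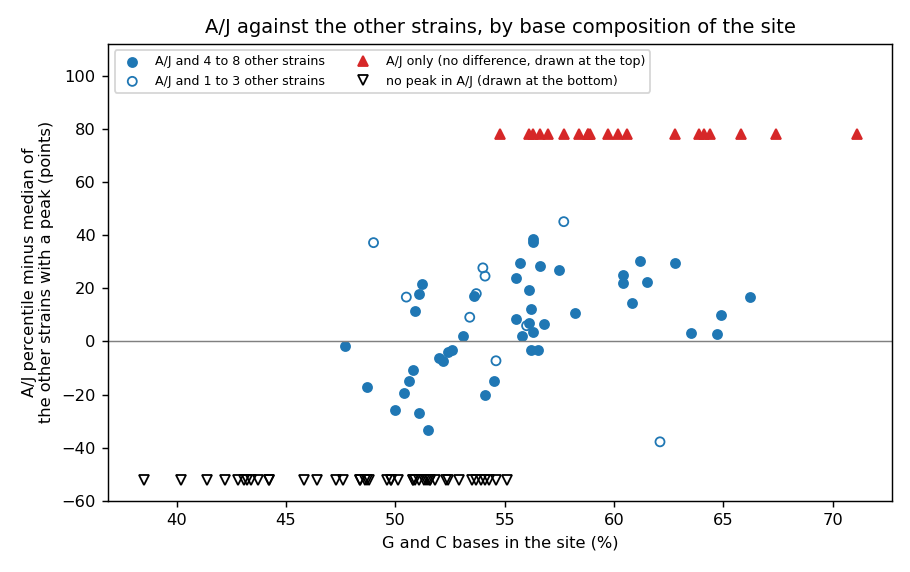
A/J against the other strains by base composition. The x axis is the percentage of G and C bases in each of the 119 sites, the y axis the A/J percentile minus the median of the other strains with a peak, with filled circles for sites called in A/J and at least 4 other strains and open circles for fewer, and triangles near the top and bottom edges mark sites called in A/J only or not in A/J, which have no difference. The sites called in A/J only lie at 54.8% G and C or above, and none of the sites without an A/J peak reaches 60%.

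The recombinant strains were compared with their parents. Where both parents had a peak (53 sites), BXH2/TyJ had one at 43 (81.1%) and BXH19/TyJ at 49 (92.5%), against 89.9% and 93.9% of all such sites. Where C57BL/6J alone of the parents had a peak (16 sites), BXH2/TyJ had 2 (12.5%) and BXH19/TyJ 7 (43.8%), against 32.4% and 33.6% of all such sites. Where C3H/HeJ alone had a peak (11 sites), BXH2/TyJ had 5 (45.5%) and BXH19/TyJ 7 (63.6%), against 44.4% and 47.3%. The genotypes of the recombinant strains at the 8 genes were not analysed here. At the 7 promoters called in all 9 strains, the percentile of a recombinant strain fell between those of its parents at 1 of 7 genes for BXH2/TyJ and 1 of 7 for BXH19/TyJ. At Foxa3 both were above both parents, with 98.1 and 96.6 against 81.3 in C57BL/6J and 63.1 in C3H/HeJ, and at Cebpa likewise, with 76.6 and 69.2 against 61.5 and 65.5. At Foxa1 and Cebpb both were below both parents. Over the 43 sites of the 8 genes called in these 4 strains, 13 values lay between the parents in BXH2/TyJ and 13 in BXH19/TyJ (30.2% each), against 27.8% and 39.6% of 19609 such sites of the merged set. With 1 list per strain, these departures cannot be set against the spread between mice.

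The promoters of other liver transcription factors were as often open as those of the 8 genes. Of 19 further factors, 18 had an own promoter site in all 9 strains, with a median percentile of 78.7 over the list, and the exception, Hnf4g, a close relative of Hnf4a, had one in 7 strains at a median of 8.98. Of 20 factors of other lineages, such as muscle and neurons, none had a promoter site in all strains, and Lhx2 had one in 7. All 12 hepatocyte marker genes had a promoter site in some strain, but 6 had one in all 9, and that of Alb, the albumin gene, was called in 2 strains. None of 5 Kupffer cell and macrophage markers and none of 3 lymphoid markers had a promoter site, including Clec4f, Marco and Ptprc. Among markers of endothelial, stellate and bile duct cells, promoter sites were called in 1 to 5 strains or in none, except for the bile duct marker Sox9, which had one in all 9 strains at a median of 63.7. Whole liver was profiled, so that fewer cells of a type and less open chromatin per cell cannot be told apart.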

How the data were processed

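FAIRE-seq libraries of 18 livers, 2 per strain, were processed by the authors. Reads were aligned with Bowtie to versions of mm9 that carry each strain's SNPs, and those of the recombinant strains to mm9 and to the C3H/HeJ version (which of the 2 gave the deposited lists is not stated), peaks were called with F-seq and the replicates were combined by IDR. The deposited lists give each peak's position and height, a score from the authors' peak caller, and the 2 deposited site lists give positions ranked by the authors. Not given in the sources used here were tool versions and the IDR cutoff. The lists hold no read counts, so the depth behind a single peak is unknown. Read numbers per library, which the authors report, differed between strains and were not taken into account here.

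The 9 lists were merged where peaks overlapped or touched, and scores were ranked within each list. Genes and starts came from GENCODE M1 and sequence from NCBIM37, the assembly that is mm9. Named were all 8 genes, every own promoter site, the 2 other sites per gene called in 1 to 8 strains with the largest SD, sites in the authors' lists, listed genes with no promoter site or one in only some strains (in part), and the 3 genes closest to the member with the most variable promoter. The most variable site at the Irf2bp1 promoter, the sites called in all 9 strains and the printed sequences were singled out after their values were seen. Withheld items among these are not reported here. The genes, lists and motifs were chosen with earlier results of these data known. Apart from Dixon's limit, by which extreme strains were picked out, no test between strains or gene groups was run. Alternatives were stricter peaks, other windows and promoter widths, the 7 inbred lists alone, each strain left out, other percentiles and, chosen after seeing the data, motif windows at the highest point. Merging and overlaps were tested on simulated intervals. Python 3.11.15, numpy 2.4.6, pandas 2.3.3, scipy 1.17.1 and matplotlib 3.10.9 were used.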

Additional observations from a re-analysis of the deposited data

Results flagged for a closer look

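Values over the 9 strains were examined in 17 sets, and in 5 of them the extreme strain stood apart by more than Dixon's 95% limit for its gap over the whole range of 9 values. Chance passes this limit in about 1 of 20 sets, and the sets share strains and sites. The promoter site of Foxa3 was lowest in C3H/HeJ, at a percentile of 63.1. The promoter site at the second start of Onecut1 was lowest in DBA/2J, at 48.2. A/J was the highest strain in the other 3, with 6 of the 7 sites of Foxa1 and 16 of the 19 sites of Foxa3 called, and with 20 sites that no other strain had over the 8 genes. These 3 sets overlap and are not separate observations. At Foxa1 and at Foxa3, 4 sites each were called in A/J only and were kept through A/J alone. Over the whole merged set A/J called 54.5% of the sites, and sites called in A/J only were 16.8% of those of the 8 genes against 11.4% of all, where the other strains had 1.03% to 2.75% of all sites to themselves. Sites called in A/J only had a median of 59.3% G and C, and the part of base composition in these counts was not tested.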

How the results depend on the processing

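No paired analysis was possible because each deposited list combines the 2 mice of a strain, and leaving out a mouse was not possible either. Strains were left out in turn instead. With only the 20000 strongest peaks of each list the counts fell to 77 sites at the 8 genes, 20 sites called in all 9 strains and 16 distal sites called in 1 strain. With a window of 50 kb, 28 distal sites were called in all 9 strains. Among the peaks of a list within 1 kb of a gene start, the median of the 8 promoter percentiles was 46.7, against 67.0 among all peaks. The mean of a strain's peaks in a site was also tried in place of the highest. It lowered the promoter median of Foxa2 from 62.5 to 53.8, of Foxa3 from 92.6 to 87.6 and of Cebpb from 85.6 to 84.2. Leaving out each strain gave 99 to 119 sites, 31 to 34 called in all strains, 14 to 18 own promoter sites, 17 to 27 distal sites called in 1 strain, 18 to 21 distal sites called in all strains and a median promoter percentile of 65.3 to 68.0. The lowest number of sites, of own promoter sites and of single-strain distal sites was without A/J. The median of Nr5a2 moved between 3.83, without a strain that called its promoter, and 10.4, without one that did not. Around the highest point of the peaks, 3 sites held the NR5A2 letters, against 5 around the middle. Of 87 alternatives for the main counts, 81 stayed within 1.5 times or within the spread between strains. Some could not move, since own promoter sites lie within every window tried. The sites of the authors' lists also all matched the merged sites of the 7 inbred lists exactly. Each set with a strain left out shared all its other lists with the main one. Differences in library depth were not taken into account, and a site without a peak cannot be told from one just below the threshold.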
